A study of Mus musculus with 15 samples.

Results

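Imprinted genes are followed here through the zygote and the 2-cell embryo, with and without maternal Usp16. The set was a fixed list of 45 mouse genes known to be imprinted, found by name in the deposited expression table, and 32 of the 45 were among its 14392 genes. Of these 32 genes, 13 are known as maternally expressed, 15 as paternally expressed, and 4 (Gnas, Inpp5f, H13 and Blcap) give transcripts from different alleles. The other 13 listed genes (Peg10, Zim1, Nap1l5, H19, Igf2, Dlk1, Rian, Mirg, Smoc1, Ndn, Magel2, Mkrn3 and Slc22a18) were not analysed here.

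An imprinted gene is expressed mainly from the copy inherited from the mother or mainly from the copy inherited from the father. The choice is set by marks laid down in the germ cells, in most cases DNA methylation at an imprinting control region, which then survives the wave of demethylation in the early embryo. A smaller group, here Gab1, Phf17, Sfmbt2 and Slc38a4, is silenced on the maternal copy by H3K27me3 carried over from the oocyte. Many imprinted genes act on growth, the placenta and the brain, and several are imprinted in some tissues only. Expression values in FPKM, which scale the fragments of a gene by its transcript length and by the size of the library, do not separate the maternal from the paternal copy, and maternally stored RNA is counted together with newly made RNA.

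USP16 is a deubiquitinase that removes ubiquitin from histone H2A (H2AK119ub1), and the study asked what its loss from the oocyte does to zygotic genome activation (ZGA), the start of transcription in the embryo. Embryos came from wild-type (WT) mothers or from Usp16 fl/fl;Gdf9-Cre (cKO) mothers, in which Cre is driven by the oocyte gene Gdf9 and acts from the primordial follicle stage on. All mothers were mated with WT males, so that cKO embryos lacked the maternal Usp16 copy and carried a paternal one, and the mothers were superovulated juvenile females. Smart-seq2 libraries of 10 pooled embryos were made from 4 groups (zygotes and 2-cell embryos of each genotype) with 2 libraries a group. The mice were on a C57BL/6 background. The labels do not say that replicates came from separate collections, so p-values measure the spread between these libraries, which may be technical.

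Usp16 itself was at 184 and 187 FPKM in WT zygotes and at 16.8 and 22.0 FPKM in cKO zygotes, and at 168 and 183 against 168 and 84.8 FPKM in 2-cell embryos. The deposited values are floored at 1 FPKM, genes at the floor in every library were left out by the authors, and 1642 to 4747 genes a library lay at this floor. The FPKM of 7 libraries summed to between 547752 and 593317, and those of the second cKO 2-cell library to 770989. Genes further than 2-fold apart between the replicates made up 1.32% to 6.79% of all genes in 3 groups and 30.4% in cKO 2-cell embryos, and 5 of the 32 imprinted genes were that far apart in cKO 2-cell embryos. All 6 oocyte markers were above the floor in every library, with a summed level between 10030 and 10960 FPKM in zygotes, 5898 and 4735 in WT 2-cell embryos and 1048 and 2516 in cKO 2-cell embryos. This sum was mostly Oosp1, whose 2-cell values were 4936 and 3711 in WT and 544 and 1876 in cKO libraries. At that stage Bmp15, Nlrp5 and Zar1 were lower as well, with cKO to WT ratios of 0.138, 0.406 and 0.456. Zp3 and Gdf9 had ratios of 1.42 and 1.27. Of 10 cumulus and granulosa cell markers only Tnfaip6, Foxl2 and Cyp19a1 were in the table, with a sum of 24.3 to 28.7 FPKM in zygotes, 4.38 and 10.3 in WT 2-cell embryos, and 3 (all at the floor) and 3.32 in cKO 2-cell embryos. In zygotes only Cyp19a1 was above the floor (22.3 to 26.7 FPKM), and in WT 2-cell embryos it was at 1 and 1.78 FPKM. Tnfaip6 and Foxl2 went the other way, to 1.83 and 7.45 and to 1.55 and 1.06 FPKM in WT 2-cell embryos. The 3 markers of the 2-cell embryo in the table summed to between 4.45 and 7.99 FPKM in zygotes, 332 and 539 in WT 2-cell embryos and 133 and 126 in cKO 2-cell embryos. The part of these differences in the results below was not tested.

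**Figure D1:**
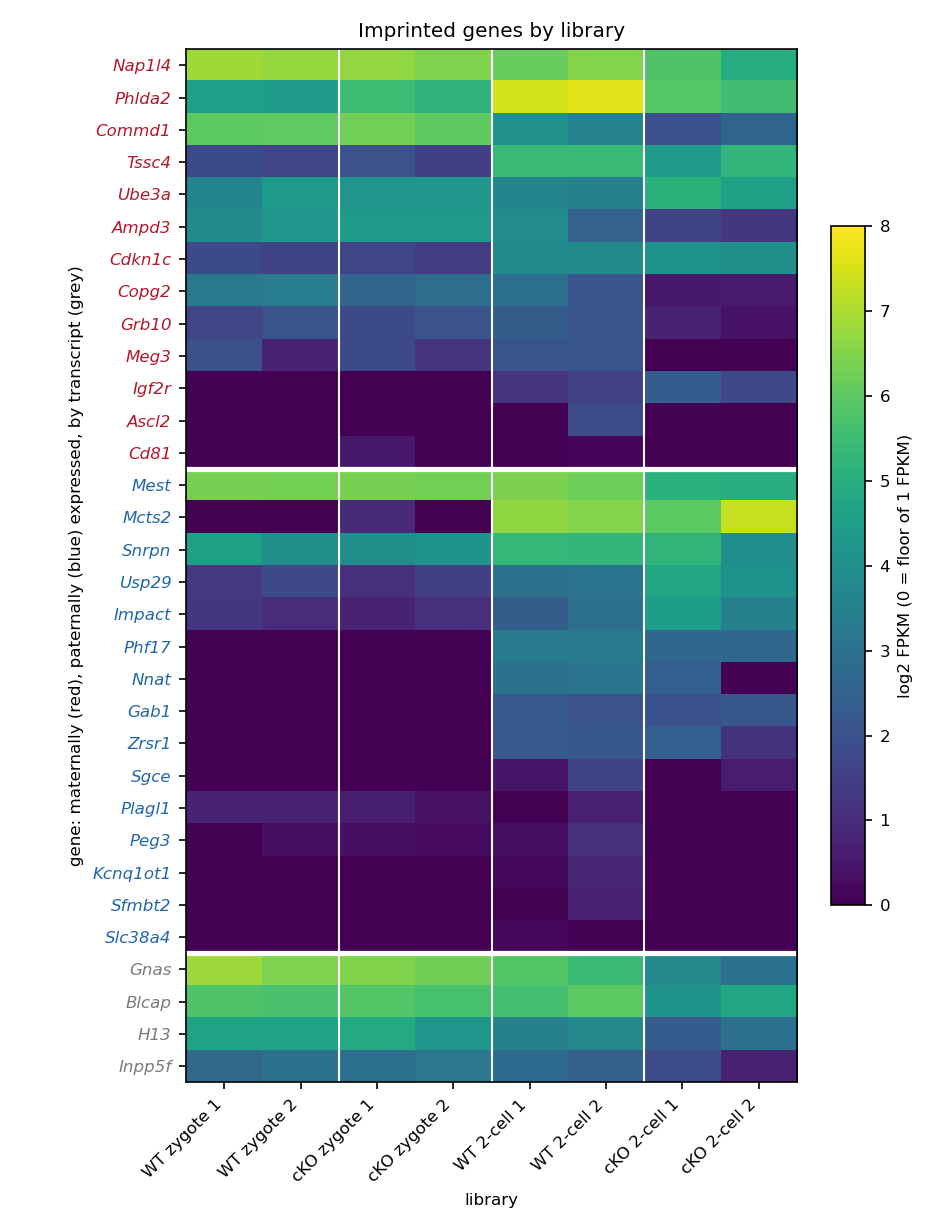
log2 FPKM of the 32 imprinted genes (rows, grouped by expressed allele and ordered by their mean) in each of the 8 libraries (columns). The darkest colour is the floor of 1 FPKM. In WT zygotes 12 of the 32 genes lay at the floor in both libraries, in WT 2-cell embryos none, and in cKO 2-cell embryos 8. Of the 8, Ascl2, Sfmbt2, Slc38a4 and Kcnq1ot1 were in the table through their WT 2-cell values alone.

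The levels of the 32 genes spanned the range from the floor to 196 FPKM, the highest value being that of Phlda2 in a WT 2-cell library. A mean of at least 5 FPKM in at least 1 group was reached by 19 genes: 8 of the 13 maternally expressed, 7 of the 15 paternally expressed and all 4 with transcripts from different alleles. The other 13 genes (Igf2r, Grb10, Meg3, Ascl2, Cd81, Peg3, Plagl1, Zrsr1, Sgce, Sfmbt2, Gab1, Slc38a4 and Kcnq1ot1) stayed below it. In WT zygotes the classes differed in how many genes were present at all: 10 of 13 maternally expressed genes, 5 of 15 paternally expressed genes and all 4 of the third class were above the floor in both libraries.

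The central comparison asked how imprinted genes differed between WT and cKO 2-cell embryos. Maternally expressed genes made up 5 of the 6 genes whose mean was more than 3-fold lower in cKO embryos, the threshold used in the study: Phlda2, Copg2, Ampd3, Grb10 and Meg3. The last of the 6 was Gnas, and no paternally expressed gene was among them. No imprinted gene was more than 3-fold higher. In all, 6 of 32 imprinted genes (18.8%) were lower by this rule, against 13.5% of all genes, and 0 of 32 were higher, against 2.84% of all genes. By class, 5 of 13 maternally expressed genes (38.5%) and 0 of 15 paternally expressed genes were lower. This difference between the classes was not tested. Copg2 and Ampd3, among the lower genes, have an expressed allele that depends on the tissue, as do Commd1, Nap1l4, Tssc4 and Cd81. No allele was measured in these embryos, so the classes need not hold at these stages. In bulk RNA, a lower value because of fewer cells with the transcript and one because of less RNA in each cell cannot be told apart.

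The limma test across all genes called 9 of the 32 genes lower (Phlda2, Copg2, Ampd3, Grb10, Meg3, Gnas, Commd1, Blcap and Mest) and 3 higher (Ube3a, Impact and Usp29) in cKO 2-cell embryos, taking calls with an adjusted p below 0.05. These are 28.1% and 9.38% of the 32 genes, against 24.6% and 6.16% of all genes, so that as a set the imprinted genes were close to the rest of the table. Maternally expressed genes gave 6 of the lower and 1 of the higher calls, paternally expressed genes 1 and 2, and the third class 2 and 0. Both cKO libraries were below both WT libraries for 18 genes (background 43.4% of all genes) and above both for 5 genes (background 14.0%): Igf2r, Impact, Usp29, Cdkn1c and Ube3a. Of the 18, Kcnq1ot1 was in the table through its WT 2-cell values alone. The median difference (cKO minus WT, log2(FPKM + 1) scale) was -0.93 over the maternally expressed, -0.29 over the paternally expressed and -1.17 over the 4 genes of the third class, and -0.30 over all genes. When libraries were scaled to a common median ratio, which moved the median of all genes from -0.30 to 0, the 3 classes were at -0.46, -0.05 and -0.75. Ascl2, Sfmbt2, Slc38a4 and Kcnq1ot1, in the table through their WT 2-cell values alone, enter these medians. The unscaled paternal median is the value of Kcnq1ot1 itself. Over genes with a group mean of at least 5 FPKM the medians were -1.14, -0.50 and -1.17, and -0.47 over all such genes. Median-ratio scaling moved these to -0.69, -0.07, -0.75 and -0.05. Under that scaling the limma calls among imprinted genes were 5 lower and 5 higher in place of 9 and 3, and the fold rule gave 1 lower and 3 higher in place of 6 and 0. The 1 gene still lower by the fold rule was Gnas, so that none of the 5 maternally expressed genes passed it after scaling, while Phlda2, Copg2 and Grb10 kept their limma calls. Over all genes the same scaling turned 3538 lower and 887 higher limma calls into 1747 and 1437, and 1940 lower and 409 higher fold calls into 905 and 993. All limma calls of imprinted genes in this comparison were lost when each group was given its own spread, which left 8 lower and 3 higher with an unadjusted p below 0.05, and when only the 4 libraries compared were fitted, which left 8 and 2. In that fit of 4 libraries no gene of the whole table was called.

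Genes with a low value in WT 2-cell embryos could not fall 3-fold against the floor. A WT 2-cell mean above 3 FPKM, which such a fall requires, was reached by 10 maternally expressed, 9 paternally expressed and 4 genes of the third class, and of these 5, 0 and 1 were lower by the fold rule. Over all genes with such a mean, 19.8% were lower. All 6 genes were also present in the zygote: of the genes above the floor in both WT zygote libraries, 5 of 10 maternally expressed, 0 of 5 paternally expressed and 1 of 4 of the third class were lower, against 15.7% of all genes with that property. None of the 13 imprinted genes that lay at the floor in a WT zygote library was called in either direction, against 9.35% lower by the fold rule, and 1125 lower and 230 higher by limma, of the 4964 genes of the table with that property. Of the 13, only Nnat, Zrsr1, Gab1, Phf17 and Mcts2 had a WT 2-cell mean above 3 FPKM and could be lower by the fold rule. Whether these shares differ was not tested. At the fold threshold itself, Grb10 was just inside at 3.05-fold, and Commd1 at 2.85-fold and Nnat at 2.67-fold were just outside.

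**Figure D2:**
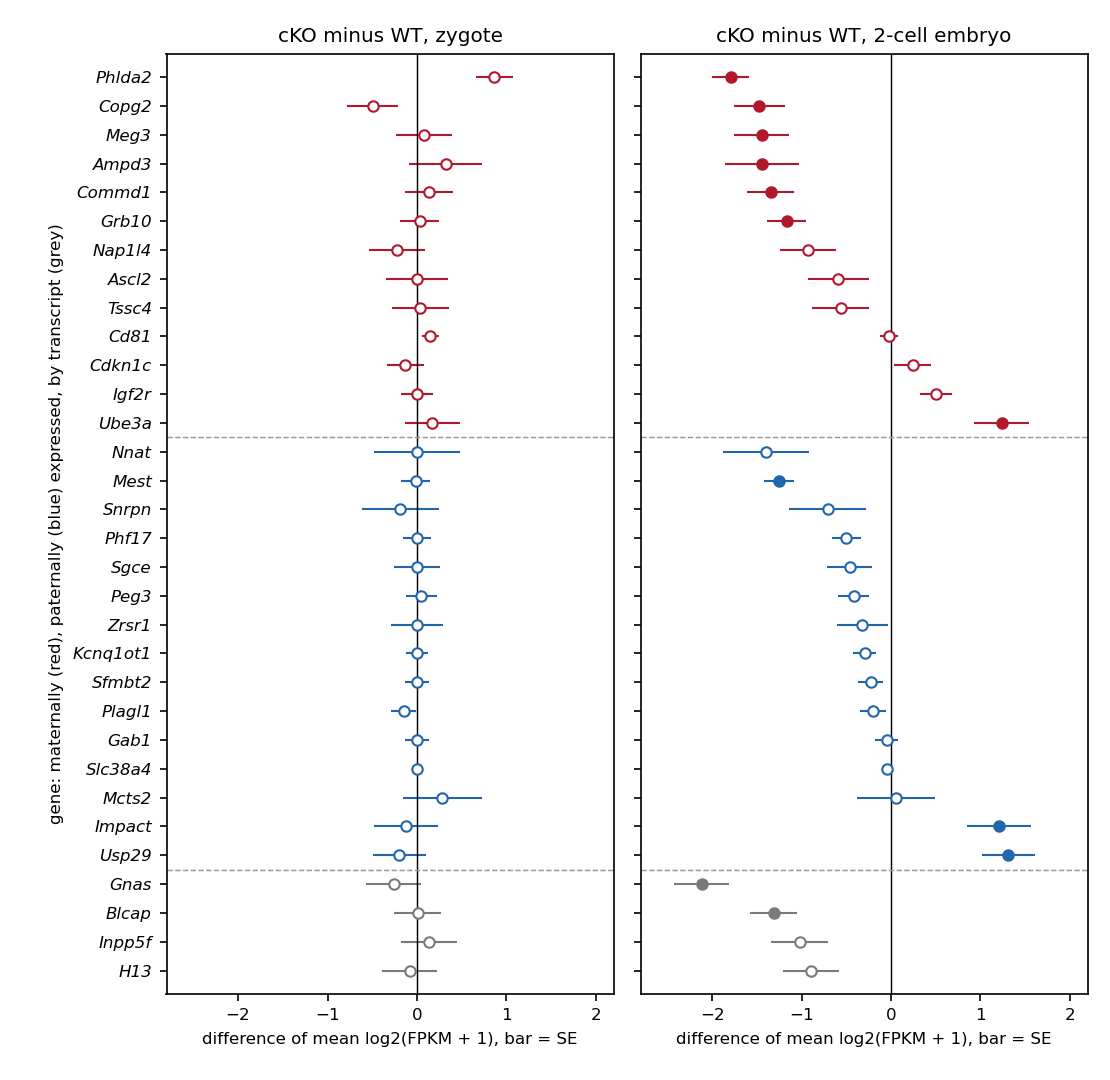
Difference cKO minus WT in mean log2(FPKM + 1) with its standard error from limma, in zygotes (left) and 2-cell embryos (right), for the 32 genes grouped by expressed allele and ordered within a class by the 2-cell difference. Filled points are limma calls at an adjusted p under 0.05, open points are not. In zygotes no gene was called, and in 2-cell embryos 9 genes were called lower and 3 higher.

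Phlda2 encodes a small pleckstrin-homology protein that restrains growth of the placenta, and of the 32 genes it had the highest value in any library. It lies on chromosome 7 from 150687450 to 150688446 on the minus strand (mm9). In WT embryos it stood at 23.0 and 21.6 FPKM in zygotes and at 174 and 196 FPKM in 2-cell embryos. In cKO embryos it stood at 46.1 and 37.2 FPKM in zygotes and at 59.0 and 46.9 FPKM in 2-cell embryos. The cKO libraries thus lay above both WT libraries in zygotes and below both in 2-cell embryos. The mean in cKO 2-cell embryos was 3.50-fold lower (log2 difference -1.79 ± 0.21 SE, adjusted p = 0.003), and the call was kept without each library in turn. On the same chromosome from 150644255 to 150646955 lies Cdkn1c, a cyclin-dependent kinase inhibitor that also restrains growth. It was at 14.0 FPKM in each WT 2-cell library whereas cKO libraries gave 17.3 and 16.3 FPKM (log2 difference 0.25 ± 0.21 SE, adjusted p = 0.405). After median-ratio scaling Cdkn1c was called higher (log2 difference 0.69, adjusted p = 0.0346).

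Grb10 encodes an adaptor protein that dampens insulin and growth-factor signalling, and is read from the maternal copy outside the nervous system. It was at 5.08 and 4.27 FPKM in WT and at 1.75 and 1.32 FPKM in cKO 2-cell embryos (3.05-fold lower, log2 difference -1.17 ± 0.22 SE, adjusted p = 0.0113). The groups did not overlap, but the fold was down to 2.68 without the second cKO library and was also under 3 without the first WT library. Igf2r, the receptor that clears the growth factor IGF2, lay at the floor in all 4 zygote libraries. In 2-cell embryos it was at 2.30 and 2.96 FPKM in WT and at 5.00 and 3.39 FPKM in cKO libraries, with no overlap and an adjusted p of 0.0772.

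Gnas encodes the stimulatory G-protein subunit Gs alpha, and its locus on chromosome 2 (174109821 to 174172245, plus strand, mm9) also gives maternal, paternal and antisense transcripts. Its FPKM was lower at the later stage in both genotypes, going from 113 and 87.5 to 57.8 and 41.8 in WT embryos, and from 89.0 and 77.0 to 13.7 and 8.08 in cKO embryos. In 2-cell embryos the cKO mean was 4.57-fold lower (log2 difference -2.12 ± 0.31 SE, adjusted p = 0.00561), with every cKO value below every WT value. The gene shares 988 exon bases with Nespas and 1469 with AF085738 on the other strand, and the libraries did not keep strand, so reads from these antisense genes cannot be told apart from those of Gnas. The other genes of this class lay lower in cKO 2-cell embryos as well, though only Blcap passed the test. Blcap, a gene that overlaps the imprinted Nnat, was at 48.4 and 63.1 FPKM in WT and at 17.3 and 27.04 FPKM in cKO 2-cell embryos (log2 difference -1.31 ± 0.26 SE, adjusted p = 0.0145), and its adjusted p was 0.0756 without the second WT 2-cell library. Inpp5f, a phosphoinositide phosphatase, was at 6.91 and 5.44 against 3.56 and 1.71 FPKM (adjusted p = 0.0537), and H13, a signal peptide peptidase, at 11.1 and 13.6 against 4.98 and 7.58 FPKM (adjusted p = 0.0742).

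Among maternally expressed genes with roles in transport and metabolism, Copg2, a subunit of the coatomer that coats Golgi vesicles, was at 7.61 and 4.38 FPKM in WT and at 1.42 and 1.49 FPKM in cKO 2-cell embryos. This 4.12-fold lower mean (log2 difference -1.47 ± 0.28 SE, adjusted p = 0.0128) kept its call without each library in turn. Copg2 shares 904 of its 4477 exon bases with Mest on the other strand, where reads cannot be told apart, and Mest had the higher FPKM in every library. The part of Mest reads in the Copg2 values was not tested. Ampd3, an AMP deaminase, was at 14.6 and 5.71 FPKM in WT and at 3.12 and 2.44 FPKM in cKO embryos, 3.65-fold lower (log2 difference -1.44 ± 0.41 SE, adjusted p = 0.0427). The WT libraries of Ampd3 were themselves more than 2-fold apart, its fold was 2.05 without the first WT library, and its limma call was lost without any library but the second of WT 2-cell embryos, with an adjusted p of up to 0.133. Commd1, a copper and NF-kappaB regulator, was at 16.4 and 11.7 against 3.91 and 5.99 FPKM (2.85-fold lower, log2 difference -1.35 ± 0.27 SE, adjusted p = 0.0136), and its adjusted p was 0.0615 without the first WT 2-cell library. In the mm9 annotation used here, Commd1 shares 2449 of its 8388 exon bases with B3gnt2 on the same strand, where reads cannot be told apart. Nap1l4, a histone chaperone, was at 70.1 and 91.0 against 55.7 and 30.9 FPKM with an adjusted p of 0.0700. Tssc4, a splicing factor, was at 42.0 and 42.6 against 21.0 and 38.1 FPKM with an adjusted p of 0.242.

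Meg3, a maternally expressed long non-coding RNA of chromosome 12 (110779211 to 110809936, plus strand, mm9), was at 4.44 FPKM in each WT 2-cell library and at the floor in each cKO library, at least 4.44-fold lower. It was present in zygotes of both genotypes, at 3.98 and 1.71 FPKM in WT and 3.51 and 2.34 FPKM in cKO libraries, so that only cKO 2-cell embryos were at the floor. The log2 difference at the 2-cell stage was -1.44 ± 0.31 SE (adjusted p = 0.0173). The call was lost when any of the WT or cKO 2-cell libraries was left out, with an adjusted p of up to 0.0981. Rian and Mirg, from the same domain, were not analysed here.

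Paternally expressed genes differed among themselves. Mest, a hydrolase-like protein of the mesoderm, was nearly constant over the other 3 groups, with values between 75.4 and 85.8 FPKM in 6 libraries. In cKO 2-cell embryos it was at 34.6 and 32.0 FPKM, 2.42-fold below WT (log2 difference -1.25 ± 0.17 SE, adjusted p = 0.00457), a call kept without each library in turn. Nnat, a proteolipid of the developing brain, was at the floor in all zygotes and at 8.06 and 8.53 FPKM in WT 2-cell embryos. In cKO 2-cell embryos it was at 5.21 FPKM in the first library and at the floor in the second (adjusted p = 0.0738). Snrpn, a small nuclear ribonucleoprotein, likewise differed between the cKO libraries, at 37.8 and 15.3 FPKM against 40.4 and 39.6 FPKM in WT embryos (adjusted p = 0.262).

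Only 3 genes were called higher in cKO 2-cell embryos. Usp29, a deubiquitinase gene of the Peg3 domain, was at 8.08 and 8.48 FPKM in WT and at 27.8 and 17.4 FPKM in cKO embryos (2.73-fold higher, log2 difference 1.31 ± 0.30 SE, adjusted p = 0.0208). Impact, a regulator of the translational stress response, was at 5.12 and 7.67 against 22.0 and 11.4 FPKM (2.61-fold higher, log2 difference 1.21 ± 0.36 SE, adjusted p = 0.0472). Ube3a, the ubiquitin ligase of Angelman syndrome and the only gene of the 3 listed as maternally expressed, was at 12.5 and 11.1 against 35.1 and 24.1 FPKM (2.51-fold higher, log2 difference 1.24 ± 0.31 SE, adjusted p = 0.0277). For each of them both cKO libraries lay above both WT libraries. The calls were less stable than those of the lower genes Phlda2, Mest, Gnas, Copg2 and Grb10, which were kept in all 8 fits without a library. The call of Usp29 was lost without any cKO zygote or WT 2-cell library (adjusted p of up to 0.0933), that of Ube3a without any of these or the first cKO 2-cell library (up to 0.131), and that of Impact without any library but the second of cKO 2-cell embryos (up to 0.213).

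**Figure D3:**
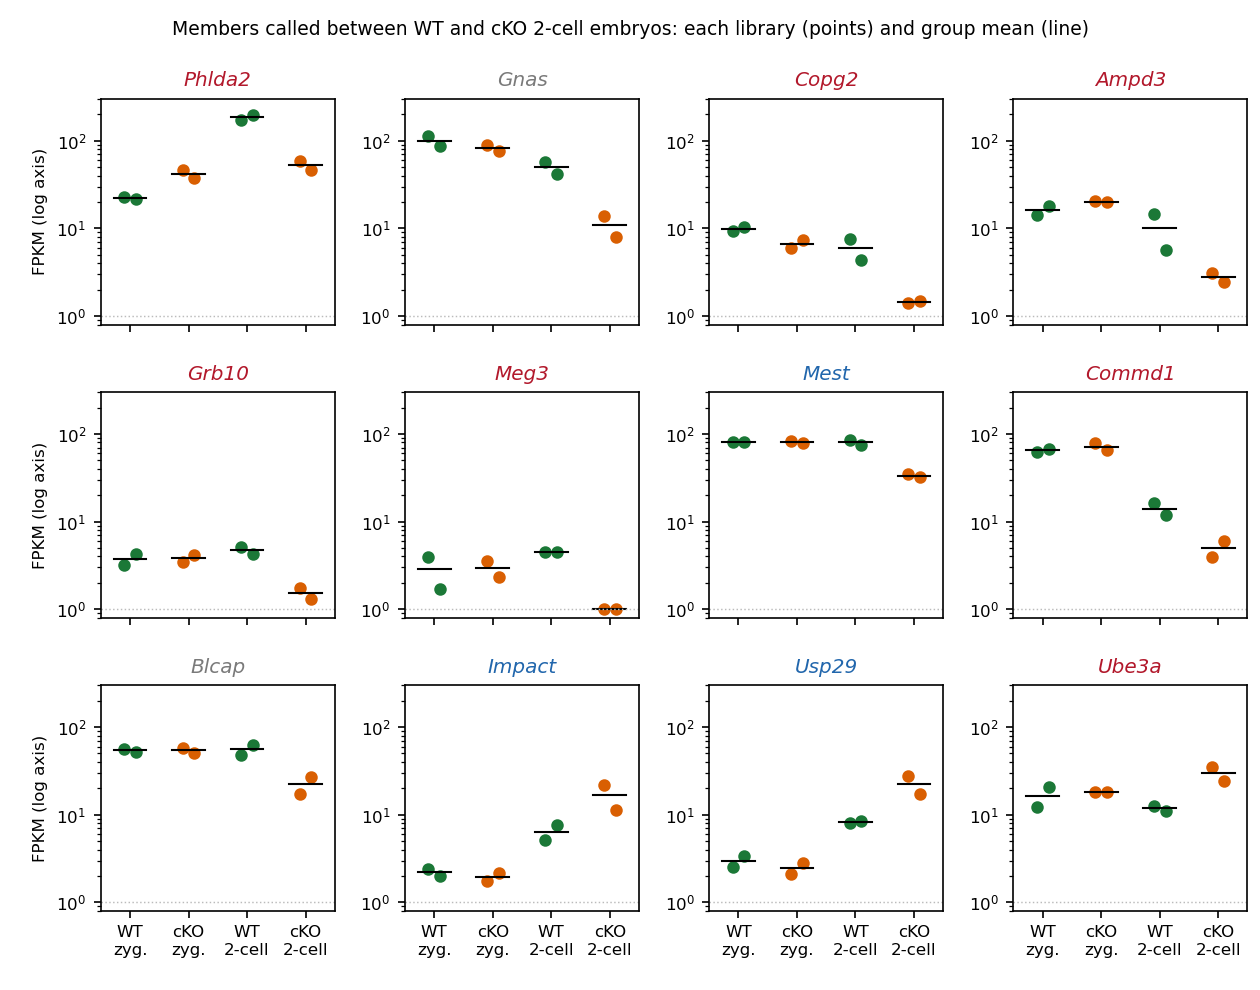
FPKM on a log axis of the 12 genes called by limma between WT and cKO 2-cell embryos, with each library as a point (green WT, orange cKO) and the group mean as a line; the dotted line is the floor of 1 FPKM, and the title colour gives the class (red maternally expressed, blue paternally expressed, grey transcripts from different alleles). For 9 genes the cKO 2-cell values lie below the WT 2-cell values and for Impact, Usp29 and Ube3a above them, with no overlap in any panel.

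The promoters of the 5 maternally expressed genes lower by the fold rule are shown because they are the genes on which the difference between the classes rests. Each is a RefSeq window of 300 bases (250 before to 50 after a transcription start) on GRCm38.p6, a different build from the mm9 gene positions given here, and is printed from 5′ to 3′ along the gene's strand. Capitals mark TGCCGC or its reverse complement GCGGCA, searched on both strands, the core of the motif read by ZFP57, a protein that keeps methylation at imprinting control regions. Where a gene has several start sites, a window with the motif was preferred. The windows are Phlda2 at chr7:143502475-143502774 (minus strand), Grb10 at chr11:12037371-12037670 (minus strand), Copg2 at chr6:30896745-30897044 (minus strand), Ampd3 at chr7:110768372-110768671 (plus strand) and Meg3 at chr12:109540746-109541045 (plus strand).
Phlda2: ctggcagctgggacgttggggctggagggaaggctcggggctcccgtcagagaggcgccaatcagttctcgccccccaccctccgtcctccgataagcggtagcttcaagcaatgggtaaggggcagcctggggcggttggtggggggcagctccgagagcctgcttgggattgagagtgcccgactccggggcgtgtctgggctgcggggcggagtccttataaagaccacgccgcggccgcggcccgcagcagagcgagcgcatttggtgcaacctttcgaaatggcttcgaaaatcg
Grb10: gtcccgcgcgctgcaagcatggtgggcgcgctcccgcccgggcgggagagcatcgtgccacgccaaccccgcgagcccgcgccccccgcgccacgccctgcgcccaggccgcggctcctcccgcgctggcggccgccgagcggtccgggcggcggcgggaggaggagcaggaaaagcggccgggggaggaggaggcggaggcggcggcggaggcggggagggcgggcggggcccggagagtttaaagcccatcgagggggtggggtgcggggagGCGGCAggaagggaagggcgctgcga
Copg2: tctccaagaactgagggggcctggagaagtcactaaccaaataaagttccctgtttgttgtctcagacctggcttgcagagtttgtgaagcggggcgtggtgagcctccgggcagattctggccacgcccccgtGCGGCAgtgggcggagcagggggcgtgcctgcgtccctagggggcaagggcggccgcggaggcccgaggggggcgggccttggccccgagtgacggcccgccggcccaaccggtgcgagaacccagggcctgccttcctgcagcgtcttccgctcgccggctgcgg
Ampd3: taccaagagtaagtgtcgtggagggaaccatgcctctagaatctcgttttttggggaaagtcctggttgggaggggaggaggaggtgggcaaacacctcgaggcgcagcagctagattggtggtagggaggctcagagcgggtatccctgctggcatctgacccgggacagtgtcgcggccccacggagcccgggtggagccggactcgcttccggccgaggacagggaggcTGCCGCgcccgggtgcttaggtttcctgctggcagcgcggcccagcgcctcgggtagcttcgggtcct
Meg3: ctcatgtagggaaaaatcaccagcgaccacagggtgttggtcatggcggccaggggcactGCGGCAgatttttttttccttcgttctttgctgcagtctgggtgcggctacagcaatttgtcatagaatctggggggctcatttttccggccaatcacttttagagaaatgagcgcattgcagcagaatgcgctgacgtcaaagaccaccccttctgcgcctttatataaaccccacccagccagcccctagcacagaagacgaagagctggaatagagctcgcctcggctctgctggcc
The motif stood once in 4 of the 5 windows, starting at position 25 after the start site in Grb10 and at -116, -18 and -190 in Copg2, Ampd3 and Meg3, and these letters were not in the windows of Phlda2 or Gnas. Windows were found for 28 of the 32 genes, and 10 of the 28 (35.7%) had the motif in at least 1 window, against 13.1% of 27025 genes of the RefSeq table. The motif was in windows of 5 of 11 maternally expressed genes, 5 of 13 paternally expressed genes and 0 of 4 genes of the third class. The windows of the imprinted genes also held more CpG, with a median of 17 CpG and 60.5% GC per window over 48 windows, against 7 CpG and 52.7% GC over 32851 windows. Imprinted genes had more windows each, and counted by window the motif was in 11 of 48 (22.9%), against 11.6% of all windows. A match describes the sequence and is not a binding site, and methylation was not measured in these data. Cdkn1c, Nap1l4, Sgce and Impact had no entry.

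In zygotes, before the main wave of embryonic transcription, no imprinted gene passed either rule. The fold rule called 0 of 32 genes lower and 0 higher, against 0.0486% and 0.104% of all genes, and limma called 0 and 0, against 0.00% and 0.0208%. At an unadjusted p under 0.05 limma gave 0 lower and 1 higher (3.12% of 32), which was Phlda2, against 0.584% and 2.25% of all genes. Its mean was 1.87-fold higher in cKO zygotes (log2 difference 0.86 ± 0.21 SE, unadjusted p = 0.0056, adjusted p = 0.942). Values did not overlap between the genotypes for 3 genes that lay lower in cKO zygotes (Plagl1, Copg2 and Nap1l4, background 10.2%) and 2 that lay higher (Phlda2 and Ampd3, background 15.8%). Copg2, at 9.34 and 10.3 FPKM in WT and 6.04 and 7.35 FPKM in cKO zygotes, lay in the same direction as at the 2-cell stage, and Ampd3, at 14.2 and 18.0 against 20.7 and 19.9 FPKM, in the opposite one. With 2 libraries against 2, an exact permutation test cannot give a p below 0.333. Nap1l4 was at 117 and 106 against 105 and 86.7 FPKM. The values of the genotypes overlapped for Mest (81.3 and 81.0 against 82.7 and 77.9 FPKM), for Blcap (55.8 and 52.6 against 58.1 and 51.0 FPKM) and for Commd1 (62.9 and 66.8 against 78.3 and 64.8 FPKM). They also overlapped for Snrpn (23.5 and 15.4 against 15.7 and 17.6 FPKM), for Ube3a (12.2 and 20.7 against 18.0 and 18.1 FPKM), for H13 (25.1 and 24.5 against 29.8 and 18.2 FPKM) and for Inpp5f (6.82 and 8.14 against 7.56 and 9.03 FPKM). Gnas overlapped as well, and Nnat and Phf17 were at the floor in all zygotes.

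The difference of the genotype effect between the stages was tested itself. For 3 of the 32 genes (9.38%, against 11.8% of all genes) this interaction had an adjusted p under 0.05, and all 3 moved down: Phlda2, Gnas and Mest. For Phlda2 the cKO to WT difference went from 0.86 in zygotes to -1.79 in 2-cell embryos, a change of -2.66 ± 0.29 SE (adjusted p = 0.00835). For Gnas the change was -1.86 ± 0.44 SE (adjusted p = 0.0464) and for Mest -1.23 ± 0.24 SE (adjusted p = 0.0294). With libraries scaled to a common median ratio, Phlda2 was still called downward (adjusted p = 0.00555), Igf2r and Usp29 were called upward, and Gnas and Mest were not called (adjusted p values of 0.0724 and 0.0622). All 3 calls were lost without any of the zygote libraries, fits in which 1 or 2 genes of the whole table kept a call and in which the difference stayed between -2.81 and -2.50 for Phlda2.

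The course in WT embryos gives the background to these differences, and it shares the WT 2-cell libraries with the comparison of genotypes, so that both use the same values. Most changes in WT embryos were rises. By the fold rule 8 of 32 genes (25.0%) were higher in WT 2-cell embryos than in WT zygotes, against 26.0% of all genes, and only Commd1 (3.12%) was lower, against 8.78%. limma called 11 genes higher (34.4%, against 34.2% of all genes) and 3 lower (9.38%, against 15.5%), the latter being Commd1, Gnas and H13. Both 2-cell libraries lay above both zygote libraries for 16 genes (background 49.4%) and below for 6 (background 26.4%). The shares were thus near those of all genes. Of the 8 genes higher by the fold rule, 5 were paternally expressed (Nnat, Zrsr1, Gab1, Phf17 and Mcts2) and 3 maternally expressed (Phlda2, Cdkn1c and Tssc4).

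The paternally expressed genes among these started from the floor. Mcts2, a retrogene of the translation factor gene Mcts1, lay at the floor in WT zygotes and reached 102 and 91.1 FPKM in WT 2-cell embryos, at least 96.6-fold higher (adjusted p = 0.00023). In cKO embryos it stood at 1.97 FPKM and the floor in zygotes and at 63.9 and 156 FPKM in 2-cell embryos, a spread that held both WT values. Because Mcts2 and Mcts1 are near-identical copies, reads may have been split between them, and Mcts1 itself was at 14.5 and 20.1 FPKM in WT and 61.4 and 190 FPKM in cKO 2-cell embryos. Zrsr1, a U2AF-related retrogene, rose from the floor to 4.71 and 4.52 FPKM in WT embryos (adjusted p = 0.00631) and was at 5.19 and 2.26 FPKM in cKO 2-cell embryos, under the same limit since it resembles Zrsr2. Nnat rose at least 8.29-fold (adjusted p = 0.0102). Zrsr1 and Nnat lay at the floor in every zygote library, which adds no spread to the model, so their p-values may be too small.

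Gab1 and Phf17 belong to the genes under maternal H3K27me3. Both lay at the floor in every zygote library, which adds no spread to the model, so their standard errors and p-values may be too small. Gab1, a docking protein for receptor tyrosine kinases, rose from the floor to 4.79 and 4.14 FPKM in WT 2-cell embryos (at least 4.46-fold, adjusted p = 0.000362), and stood at 4.08 and 4.47 FPKM in cKO 2-cell embryos. Phf17, a PHD-finger protein of histone acetyltransferase complexes, rose to 9.72 and 9.36 FPKM (at least 9.54-fold, adjusted p = 0.000157) and stood at 6.46 FPKM in each cKO 2-cell library. Neither passed the test between genotypes, with log2 differences of -0.05 ± 0.13 SE and -0.50 ± 0.16 SE and adjusted p values of 0.819 and 0.0582. Sfmbt2, a Polycomb-group protein, and Slc38a4, an amino acid transporter, did not exceed 1.74 and 1.14 FPKM in any library, and Smoc1 was not analysed here.

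Among maternally expressed genes, Phlda2 was 8.29-fold (adjusted p = 0.000173), Cdkn1c 4.28-fold (adjusted p = 0.000842) and Tssc4 12.7-fold (adjusted p = 0.000453) higher in WT 2-cell embryos than in WT zygotes. Cdkn1c went from 3.45 and 3.09 FPKM in WT zygotes to 14.0 FPKM in each WT 2-cell library, and from 3.19 and 2.64 to 17.3 and 16.3 FPKM in cKO embryos. Tssc4 went from 3.47 and 3.18 to 42.0 and 42.6 FPKM in WT embryos and from 4.10 and 2.86 to 21.0 and 38.1 FPKM in cKO embryos. It lies within Trpm5 on the opposite strand and shares 220 exon bases with it. Igf2r, Impact and Usp29 were called higher by limma only, with log2 differences of 0.85, 1.18 and 1.24 and adjusted p values of 0.00848, 0.0342 and 0.0147. Impact was at 2.41 and 2.01 FPKM in WT zygotes and at 1.74 and 2.17 FPKM in cKO zygotes, and Usp29 at 2.51 and 3.41 against 2.11 and 2.79 FPKM, so that both stood higher in WT 2-cell embryos than in zygotes and higher again in cKO 2-cell embryos. Commd1 was 4.61-fold lower in WT 2-cell embryos than in WT zygotes (log2 difference -2.14, adjusted p = 0.00114), and Gnas and H13 were lower by 1.00 and 0.95 on the log2 scale (adjusted p values of 0.0366 and 0.0432). The calls of Gnas and Impact were lost without any zygote or WT 2-cell library (adjusted p of up to 0.181 and 0.175), and those of H13 and Nnat without any WT library (up to 0.185 and 0.0842). That of Zrsr1 was lost without either WT 2-cell library (up to 0.0575), that of Usp29 without these or the first WT zygote library (up to 0.0883), and that of Igf2r without either WT zygote library or the second WT 2-cell library (up to 0.0553).

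Several imprinted genes lie within or beside another imprinted gene, and their ratio within a library is free of the scaling between libraries, except where a gene is at the floor and the ratio is a bound. Mcts2 lies in H13 on chromosome 2 (152512884 to 152513676 within 152495197 to 152534406, same strand, mm9) and shares no exon base with it. The Mcts2 to H13 ratio was at most 0.0398 and 0.0408 in WT zygotes, 9.16 and 6.70 in WT 2-cell embryos, and 12.8 and 20.6 in cKO 2-cell embryos. Both cKO 2-cell values thus lay above both WT values. Reads may have been split between Mcts2 and Mcts1, and this ratio carries that limit. The Mcts2 to Mcts1 ratio was 7.05 and 4.52 in WT and 1.04 and 0.821 in cKO 2-cell embryos. The Mest to Copg2 ratio was 11.3 and 17.2 in WT and 24.4 and 21.5 in cKO 2-cell embryos, and these genes, on opposite strands, share 904 exon bases at their 3′ ends, where reads of Mest and Copg2 cannot be told apart. Peg3, a zinc-finger protein gene that is paternally expressed like its neighbour Usp29, was at 1.22 and 2.22 FPKM in WT and at the floor in cKO 2-cell embryos. The Usp29 to Peg3 ratio was 6.63 and 3.82 in WT and, bounded by that floor, at least 27.8 and 17.4 in cKO 2-cell embryos. In each of these 3 pairs the ratio, as oriented here, was higher in cKO 2-cell embryos, with no overlap. The promoter windows of Usp29 and Peg3 face away from each other and share 263 bases on GRCm38.p6.

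The ratio of Cdkn1c to Phlda2, both maternally expressed, was 0.0806 and 0.0714 in WT and 0.293 and 0.348 in cKO 2-cell embryos, and in zygotes it was 0.150 and 0.143 in WT and 0.0692 and 0.0709 in cKO libraries. The order of the genotypes was thus opposite at the 2 stages. The Ube3a to Snrpn ratio was 0.309 and 0.280 in WT and 0.928 and 1.58 in cKO 2-cell embryos, and 0.521 and 1.35 against 1.15 and 1.03 in zygotes, where the genotypes overlapped. Zrsr1 and Commd1, on opposite strands with 203 exon bases in common, had ratios of 0.286 and 0.385 in WT and 1.33 and 0.377 in cKO 2-cell embryos, which overlapped. The Nnat to Blcap ratio was 0.167 and 0.135 against 0.301 and at most 0.0370, which overlapped as well. These ratios are descriptions, with no test. Their direction depends on which gene was put as the numerator, a choice made by hand. Phlda2, Copg2, Mest, Usp29 and Ube3a were already called between the genotypes, and the ratios reuse the same values. How often ratios of other gene pairs fail to overlap was not computed.

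**Figure D4:**
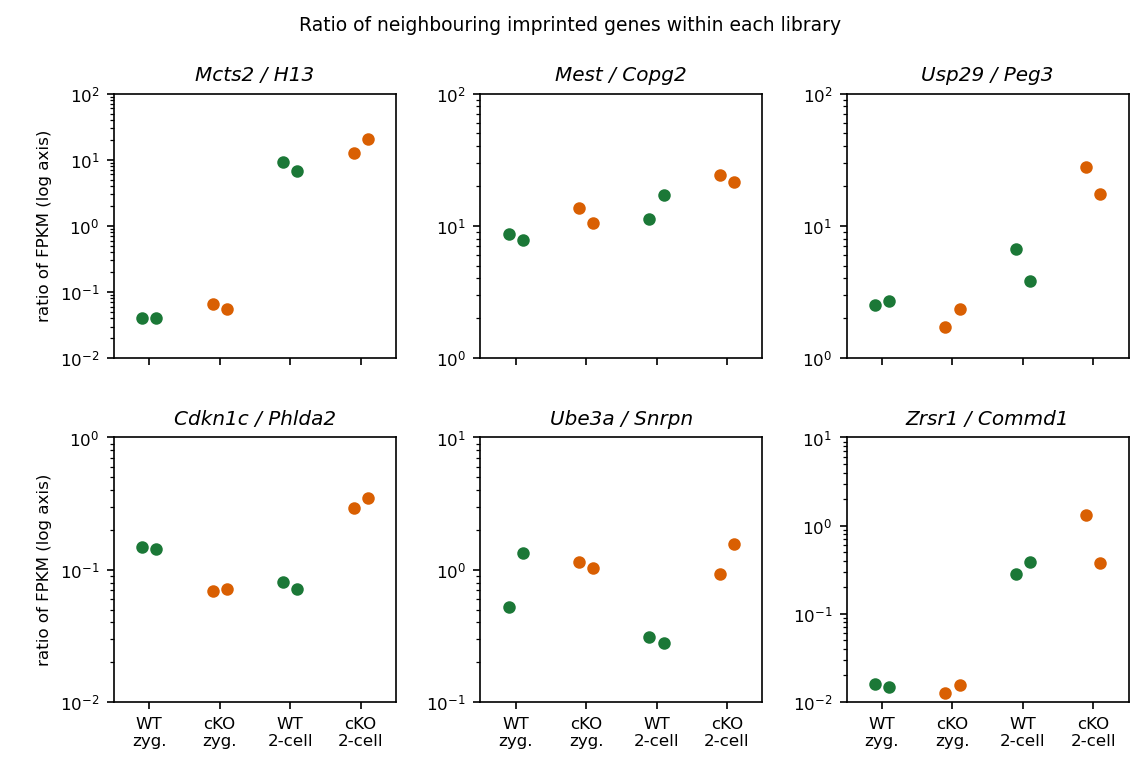
Ratio of FPKM (log axis) of 6 pairs of neighbouring imprinted genes in each of the 8 libraries (green WT, orange cKO). In 2-cell embryos both cKO ratios lie above both WT ratios for Mcts2/H13, Mest/Copg2, Usp29/Peg3, Cdkn1c/Phlda2 and Ube3a/Snrpn, and the genotypes overlap for Zrsr1/Commd1. The direction depends on the choice of numerator. Ratios with Peg3 at the floor (both cKO 2-cell libraries and the first WT zygote library) are lower bounds, and those with Mcts2 (3 zygote libraries) or Zrsr1 (all zygote libraries) at the floor are upper bounds. Reads of Mcts2 may have been split with Mcts1.

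Genes that set or protect imprints were examined from a separate list of 15, all in the table. In 2-cell embryos Dnmt3l, the cofactor of de novo DNA methylation in oocytes, was lower in cKO, at 18.4 and 15.2 against 58.4 and 49.6 FPKM (log2 difference -1.63, adjusted p = 0.00788). Dppa3, which shields the maternal genome from demethylation, was higher, at 5888 and 8775 against 2958 and 2472 FPKM (log2 difference 1.41, adjusted p = 0.0242). These were the only 2 of 15 called by limma (1 lower, against 24.6% of all genes, and 1 higher, against 6.16%), and Dnmt3l was the only one past the 3-fold rule. In zygotes 0 of 15 were called between genotypes. Between the WT stages, 9 of 15 were lower by limma (against 15.5% of all genes) and 0 higher, and 8 were lower by the fold rule (against 8.78%). Zfp57 went from 1325 and 1135 FPKM in WT zygotes to 125 and 140 FPKM in WT 2-cell embryos, and was at 179 and 97.0 FPKM in cKO 2-cell embryos.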

How the data were processed

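RNA-seq of 8 Smart-seq2 libraries was analysed (2 for each genotype at each stage), and 7 ChIP-seq samples of the series were not analysed here. Per the study's methods, the authors trimmed reads to 50 bases, aligned them to mouse mm9 with TopHat2 2.1.1 and computed FPKM with Cufflinks 2.2.1 (versions from the submitters' processing notes), and the deposited FPKM table has values below 1 set to 1 and leaves out genes below 1 in every sample. The gene annotation used is not given in the sources used here. FPKM hold no counts, so the depth is unknown and no counting interval is given, and precision rests on 2 libraries a group.

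Genes were found by symbol, and the members, the lists and the alternatives were chosen with earlier results of these data known. A gene was called lower or higher by the fold rule at a more than 3-fold ratio of group means, and by limma 3.58.1 in R 4.3.3 on log2(FPKM + 1) with a trend, a single model of the 4 groups (4 residual degrees of freedom), and p-values adjusted by Benjamini-Hochberg over all 14392 genes at 0.05. Fold changes on this scale understate those of low genes. Where a gene is at the floor in all libraries of a group, that group adds no spread to the model. Standard errors and p-values may then be too small, as for Igf2r, Nnat, Zrsr1, Gab1 and Phf17, at the floor in every zygote library. Genes with a group mean of at least 5 FPKM are given with their values by library, called genes with their test, and the rest by counts and ranges. Counts by expression in WT zygotes or by a WT 2-cell mean above 3 FPKM were added after seeing the data. Fits were tested on simulated data. Gene positions are from GENCODE for mm9 (31 of the 32 genes), and promoters from RefSeq (GRCm38.p6). The Python scripts used Python 3.11.15, numpy 2.4.6 and pandas 2.3.3.

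The groups share replicate numbers, and no pairing is described. Fits with the replicate number as a block were an alternative. Others were the scaling, the pseudocount, a filter on low values, the threshold, the model of the spread and leaving out each library.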

Additional observations from a re-analysis of the deposited data

Results flagged for a closer look

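For 3 imprinted genes the effect of the genotype differed between zygotes and 2-cell embryos, by the limma interaction across all genes with Benjamini-Hochberg adjustment. Phlda2, the placental growth restrainer, had a difference of effects (2-cell minus zygote, log2 scale) of -2.66 ± 0.29 SE (adjusted p = 0.00835): both cKO libraries lay above both WT libraries in zygotes and below both in 2-cell embryos. Gnas, the gene of Gs alpha, had a difference of -1.86 ± 0.44 SE (adjusted p = 0.0464), and Mest one of -1.23 ± 0.24 SE (adjusted p = 0.0294). For both, the genotypes overlapped in zygotes and did not in 2-cell embryos. With the replicate number as a block, all 3 interaction calls were lost and 1 was left in the whole table. Leaving out any of the zygote libraries ended all 3 calls and left 1 or 2 calls in the whole table, with adjusted p values of up to 0.0697 for Phlda2, 0.177 for Gnas and 0.129 for Mest over all libraries left out. Gnas was also lost without either WT 2-cell library. The summed FPKM of the second cKO 2-cell library was 770989 against 547752 to 593317 in the others, and without that library the interaction called 10 of the 32 genes (31.2%, against 24.9% of all genes), and without the first cKO 2-cell library 11 (34.4%, against 32.1%), with Phlda2, Gnas and Mest among them each time.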

How the results depend on the processing

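Of the recomputed counts of imprinted genes, 131 stayed within 1.5 times the reported count and 37 did not. The 131 include all counts between genotypes in zygotes, which were 0 under every setting. Only the number of genes was compared, so a count could stay the same with other genes in it. For genes lower in cKO 2-cell embryos by the fold rule (6 as reported), a 2-fold threshold gave 12, a requirement that every library differ by more than 3-fold gave 2, a pseudocount of 1 gave 2 and median-ratio scaling gave 1. For genes higher by that rule (0 as reported), a 2-fold threshold gave 3 and scaling 3, and leaving out 1 library gave 0 to 2. For genes lower by limma (9), scaling gave 5, and a spread per group and a fit of only the 4 libraries each gave 0, with 8 each at an unadjusted p under 0.05. For genes higher by limma (3), scaling gave 5, a spread per group and the fit of 4 libraries 0 each (3 and 2 unadjusted), the replicate block 1, and leaving out 1 library 0 to 4. Between WT stages, the 2-fold threshold gave 3 lower and 14 higher in place of 1 and 8, scaling gave 6 lower by limma in place of 3, and leaving out 1 library gave 1 to 3 lower by limma. For the interaction (3), a filter at 5 FPKM gave 5, a spread per group 1, the replicate block 0 (10 at an unadjusted p under 0.05), and leaving out 1 library 0 to 11.

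The labels describe no pairing. Deviations of same-numbered libraries from their group means correlated over genes at 0.497 in zygotes and -0.239 in 2-cell embryos. There were 2 pairs a stage, and whether same-numbered libraries were collected together was not tested. With the replicate block limma called 7 genes lower and 1 higher in cKO 2-cell embryos, and 0 interactions, with 1 interaction in the whole table. A block with crossed numbers, added after seeing the data, gave 9 lower, 4 higher and 1 interaction. No other count moved by over 1.5 times under the block. When a library was left out, the lone library of its group was assumed to vary like the others. Over single called genes, 296 values kept their call, 117 lost it and 0 reversed. The cause of these changes was not tested. Depth is unknown, and values at the floor of 1 FPKM limit any fold of genes near it.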

Other observations

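The genes below 5 FPKM in every group mean, apart from those described with a test, were Peg3, Plagl1, Sgce, Ascl2, Sfmbt2, Slc38a4, Kcnq1ot1 and Cd81. Their highest values stood in WT 2-cell embryos for Peg3 (2.22 FPKM), Sgce (3.09 FPKM), Ascl2 (3.54 FPKM), Sfmbt2 (1.74 FPKM), Slc38a4 (1.14 FPKM) and Kcnq1ot1 (1.83 FPKM), in a WT zygote library for Plagl1 (1.69 FPKM) and in a cKO zygote library for Cd81 (1.47 FPKM). Ascl2, Sfmbt2, Slc38a4 and Kcnq1ot1 were in the table through their WT 2-cell values alone. For these genes the order of the groups was fixed by that filter and is no result. In cKO 2-cell embryos all of them but Sgce were at the floor in both libraries. For Ascl2, a transcription factor of the placenta, and for Plagl1, Sfmbt2, Slc38a4 and Cd81, 1 of the WT 2-cell libraries was at the floor too. Kcnq1ot1, the non-coding RNA of the domain that holds Phlda2 and Cdkn1c, was above the floor only in WT 2-cell embryos, at 1.13 and 1.83 FPKM, and its adjusted p between genotypes was 0.134 by limma. No strand was kept, so it cannot be separated from Kcnq1, in which it lies.

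Within cKO 2-cell embryos the replicates of 5 of the 32 genes were more than 2-fold apart (15.6%, against 30.4% of all genes). Examples are Nnat, at 5.21 and 1 FPKM, Mcts2, at 63.9 and 156 FPKM, and Snrpn, at 37.8 and 15.3 FPKM.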
